A study of Mus musculus with 6 samples.

Results

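The clustered replication-dependent histone genes were taken as every gene of the deposited expression table whose symbol starts with Hist1h, Hist2h, Hist3h or Hist4h, which gave 68 of the 21988 genes. By histone class they comprised 6 H1, 19 H2A, 18 H2B, 12 H3 and 13 H4 genes. The study profiled RNA from mouse embryonic fibroblasts (MEFs), primary connective-tissue cells taken from C57BL/6 embryos at 13.5 days of gestation and grown in serum-containing medium, with no genetic change or added agent in any group. The cells were serially passaged and collected after 2, 8 and 14 cumulative population doublings (PD2, PD8 and PD14), a span over which primary MEFs are commonly followed towards replicative senescence. Each group held 2 libraries, replicate 1 made from RNA depleted of ribosomal RNA (rRNA-depleted) and replicate 2 made by poly(A) selection, so each method had 1 library per group. The labels do not say whether the libraries came from separate cultures or embryos, so the differences between them may be technical. With 1 library per group and method, no p-value given here measures the spread between repeat libraries.

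Histone proteins package DNA into nucleosomes. Pairs of H3 and H4 form the centre of the particle, H2A-H2B dimers complete it, and the linker histone H1 binds the DNA where it enters and leaves. The genes in these clusters are expressed mainly during S phase, when newly copied DNA needs new nucleosomes, and their mRNAs are the textbook exception to polyadenylation. The transcripts are cut downstream of a conserved stem-loop that is bound by the stem-loop binding protein SLBP, and they normally carry no poly(A) tail, so a poly(A)-selected library captures little of this form. Some of these genes also give polyadenylated transcripts that use a signal further downstream, a form described in differentiated and non-dividing cells.

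The stem-loop marks the end of the form without a poly(A) tail, so its sequences are shown first. Its part in the differences between the 2 library methods was not tested. In the GENCODE M21 annotation (GRCm38), a 16-base stem-loop was found in the annotated 3′ UTR of 44 of the 68 genes, between 21 and 58 bases after the stop codon (median 31). The search asked for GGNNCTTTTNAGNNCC on the transcript strand with a perfectly paired stem. The 6 sequence forms follow, 5′ to 3′, as DNA letters with the 4-base loop in capitals.
Form in 26 genes (3 H1, 10 H2A, 8 H2B, 5 H3), among them Hist1h1c and Hist2h3c1: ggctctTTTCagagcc
Form in 7 genes, all H4, among them Hist1h4d and Hist1h4m: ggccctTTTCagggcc
Form in 6 genes (1 H1, 2 H2B, 3 H3), among them Hist1h3c: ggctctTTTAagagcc
Form in 2 H4 genes, Hist1h4i and Hist2h4: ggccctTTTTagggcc
Form in 2 H4 genes, Hist1h4b and Hist1h4j: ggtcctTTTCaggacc
Form in 1 H2A gene, Hist2h2ac: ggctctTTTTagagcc
The H4 stems thus differed from those of the other classes in the letters of the stem, while the loop was TTTC in most genes of every class that had one. Of the 40 histone genes with at least 80 bases of annotated 3′ UTR, 34 held the stem-loop within those 80 bases, against 2 of 20203 other protein-coding genes (0.0099%). Of the 24 genes without a match, 17 had under 40 bases of annotated 3′ UTR, and Hist1h1a was one of the others, with 48 bases.

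The values are in TPM, the abundance of a gene's transcripts corrected for their length and scaled to the total of the library. Each library had between 12554 and 12827 genes at 1 TPM or more, and read counts were not used here, so the depth behind a value is unknown. The summed TPM of the table was 1000000 in each poly(A) library and 937922, 950531 and 937217 in the rRNA-depleted libraries at PD2, PD8 and PD14. All 10 fibroblast markers passed the expression filter, with a summed level of 15100 to 29700 TPM. The 6 macrophage markers (Ptprc, Cd68, Adgre1, Csf1r, Lyz2 and C1qa) also all passed it, with summed levels of 129, 23.3 and 31.4 TPM in the rRNA-depleted libraries and 372, 675 and 633 TPM in the poly(A) libraries from PD2 to PD14. These levels thus also went in opposite directions in the 2 methods between PD2 and PD14, and their part in the histone results was not tested. Markers of other cell types were lower but also moved with passage. From PD2 to PD14 the 4 epithelial markers had summed levels of 8.48, 1.52 and 1.05 TPM (rRNA-depleted) and 8.56, 0.959 and 0.457 TPM (poly(A)), and the 4 endothelial markers 7.22, 6.62 and 7.13 TPM and 8.44, 4.26 and 3.5 TPM. The 4 germ cell markers had 0.792, 7.23 and 7.22 TPM and 0.31, 1.11 and 1.06 TPM, with Tnp1 at 0 in every library. Their part in the histone results was not tested either. In RNA from whole cultures, fewer cells expressing a gene and less RNA of it per cell cannot be told apart.

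In the rRNA-depleted libraries the histone genes together were high at PD2 and lower at each later passage, and in the poly(A) libraries they were low at PD2 and higher at each later passage. The summed level of the 68 genes in the rRNA-depleted libraries was 14630 TPM at PD2, 7434 TPM at PD8 and 4892 TPM at PD14, which is 1.559%, 0.782% and 0.522% of all TPM in those libraries. In the poly(A) libraries the sum was 747.8, 1680 and 2442 TPM, or 0.0748%, 0.168% and 0.244%. The 2 methods did not overlap: the lowest rRNA-depleted sum was above the highest poly(A) sum. Their ratio was 19.6 at PD2, 4.42 at PD8 and 2.0 at PD14. The means over passages were 8983.5 ± 5048.3 TPM (SD, n = 3) and 1623.1 ± 848.4 TPM (SD, n = 3). These SDs hold the passage trend and are not the spread of repeat libraries. An exact two-sided permutation test of 3 libraries against 3 gave p = 0.1, the smallest this design allows. It took the 3 passages of a method as repeats and ignored their pairing across methods. Sums that do not overlap could give no other value, so the test adds nothing to them.

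Every class took part in both patterns. The H4 genes had the highest sum in the rRNA-depleted libraries, at 4332, 2312 and 1732 TPM from PD2 to PD14, and the lowest of all classes in the poly(A) library of PD2, at 63.04, 256.1 and 436.8 TPM. The H2B genes had 3111, 1777 and 1042 TPM in the rRNA-depleted libraries and the highest poly(A) sums, at 306, 682.6 and 975.4 TPM. The H2A genes had 3153, 1574 and 1035 TPM against 167.8, 365.2 and 444.6 TPM. H2A and H2B, which form a dimer in the nucleosome, thus had similar rRNA-depleted sums, while the H2B sum was the larger one in every poly(A) library. Of that H2B poly(A) sum, Hist1h2bc alone held 237.4, 518.8 and 755.2 TPM. The H3 genes had 2420, 1053 and 611.7 TPM against 68.56, 127.2 and 176.2 TPM. The linker H1 genes had 1609, 717 and 471 TPM against 142.4, 248.7 and 408.7 TPM. The ratio of rRNA-depleted to poly(A) level at PD2 was largest for H4 (68.7) and H3 (35.3), followed by H2A (18.8), H1 (11.3) and H2B (10.2). At PD14 it was 3.97 for H4, 3.47 for H3, 2.33 for H2A, 1.15 for H1 and 1.07 for H2B. The order of the classes by this ratio was thus the same at both ends of the series. In H1 and H2B, however, most of the poly(A) sum came from 1 gene each. At PD2 Hist1h1c held 133.5 of the 142.4 TPM of H1, and Hist1h2bc 237.4 of the 306 TPM of H2B. The order of the classes without these genes was not computed.

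**Figure D1:**
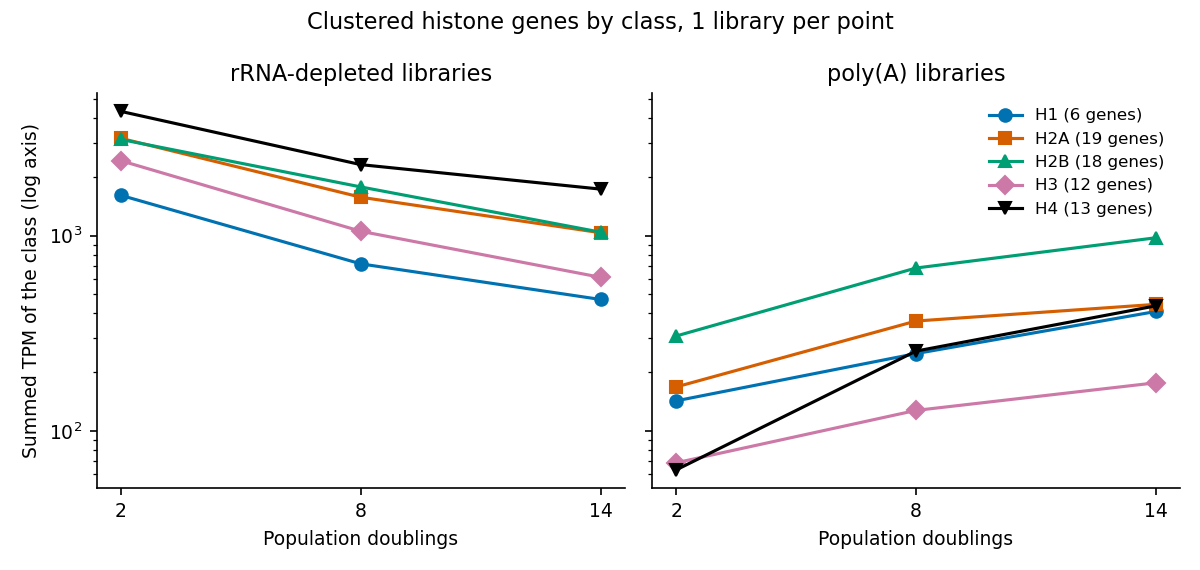
Summed TPM of each histone class (log axis) against population doublings in the rRNA-depleted (left) and poly(A) libraries (right), 1 library per point and no error bars because each point is a single library. Every class is lower at each later passage on the left and higher at each later passage on the right; H4 runs from 4332 to 1732 TPM on the left and from 63.04 to 436.8 TPM on the right.

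The library method was tested gene by gene with limma on log2(TPM + 1), with passage as a second term, over the 13332 genes at 1 TPM or more in at least 2 of the 6 libraries. Among them were 65 of the 68 histone genes. The 3 left out were the testis histone genes Hist1h2aa (0 in every library) and Hist1h2ba, and Hist3h2ba. The method comparison found 54 of the 65 histone genes higher in the rRNA-depleted libraries and 0 lower, where 20.9% of all tested genes were called higher. By class these were 5 of 6 H1, 15 of 18 H2A, 13 of 16 H2B, 10 of 12 H3 and 11 of 13 H4 genes, and the median difference was 4.18 on the log2 scale against 0.04 for all tested genes. Of the 54, 6 genes were under 1 TPM in every poly(A) library (Hist1h1t, Hist1h2bm, Hist1h3a, Hist2h2ab, Hist2h2ac and Hist4h4). They passed the filter only through the rRNA-depleted libraries. Hist1h2ag, Hist1h2bl, Hist1h3e, Hist1h4f and Hist2h2bb reached 1 TPM in only 1 poly(A) library, so they too needed the rRNA-depleted libraries to pass. Of the 59 tested genes outside the first 6, 48 were called higher, a count that still includes these further genes. Without the poly(A) library of PD8 the median difference was 4.36, and fewer genes were called. Without either PD2 library the median was 3.48, and Hist1h1c, Hist1h2bc, Hist1h4i, Hist2h3c1 and Hist3h2a had negative differences.

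The largest differences between the methods in single genes were those of the H4 genes Hist1h4f and Hist1h4d. As a class, H4 had a median difference of 4.16, below the 4.56 of H1. Hist1h4d, an H4 gene on chr13:23581598-23582735 (plus strand) and the highest histone gene in every rRNA-depleted library, had 1004, 537.8 and 401.6 TPM there at PD2, PD8 and PD14. Its poly(A) levels were 1.305, 5.735 and 8.977 TPM, and the difference was 6.81 ± 0.64 (log2 ± SE, limma adjusted p = 0.00504). Hist1h4f had 306.4, 186.6 and 123.5 TPM and was listed at 0 in the poly(A) library of PD2, with 0.1902 and 1.47 TPM in the later ones (log2 difference 7.07 ± 0.49, limma adjusted p = 0.00354). For both genes the 3 rRNA-depleted libraries lay far above all 3 poly(A) libraries. The H2B gene Hist2h2bb had 320.5, 173.2 and 108.1 TPM against 0.6497, 0.6723 and 1.1 TPM (6.67 ± 0.37, limma adjusted p = 0.00289).

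The 11 genes that did not pass this test included the ones with the highest poly(A) levels. The H2B gene Hist1h2bc (chr13:23684199-23692908, plus strand), whose annotated transcript has 2 exons, had 237.4, 518.8 and 755.2 poly(A) TPM and 277.5, 353.0 and 264.8 rRNA-depleted TPM. It alone made up 31.8%, 30.9% and 30.9% of the histone sum in the poly(A) libraries. The linker histone gene Hist1h1c (chr13:23738808-23740367, plus strand) had 133.5, 227.5 and 377.4 poly(A) TPM and 262.4, 196.6 and 151.4 rRNA-depleted TPM. For these 2 genes the ranges of the methods overlapped, and in each the poly(A) level was the higher one at PD8 and PD14. The log2 differences over the 3 passages were -0.61 ± 0.32 (Hist1h2bc) and -0.18 ± 0.42 (Hist1h1c). The other genes in this set were Hist1h2bg, Hist1h4i, Hist1h4m, Hist2h2aa1, Hist2h2aa2, Hist2h2be, Hist2h3c1, Hist2h3c2 and Hist3h2a. The lowest difference was that of the H3 gene Hist2h3c1 (-1.66 ± 0.61, limma adjusted p = 0.0833), with 15.71, 5.123 and 3.748 rRNA-depleted TPM against 13.85, 25.26 and 38.4 poly(A) TPM. All 50-base stretches (100%) of its longest annotated transcript also occur in other genes, so its level depends on how reads were divided between them.

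**Figure D2:**
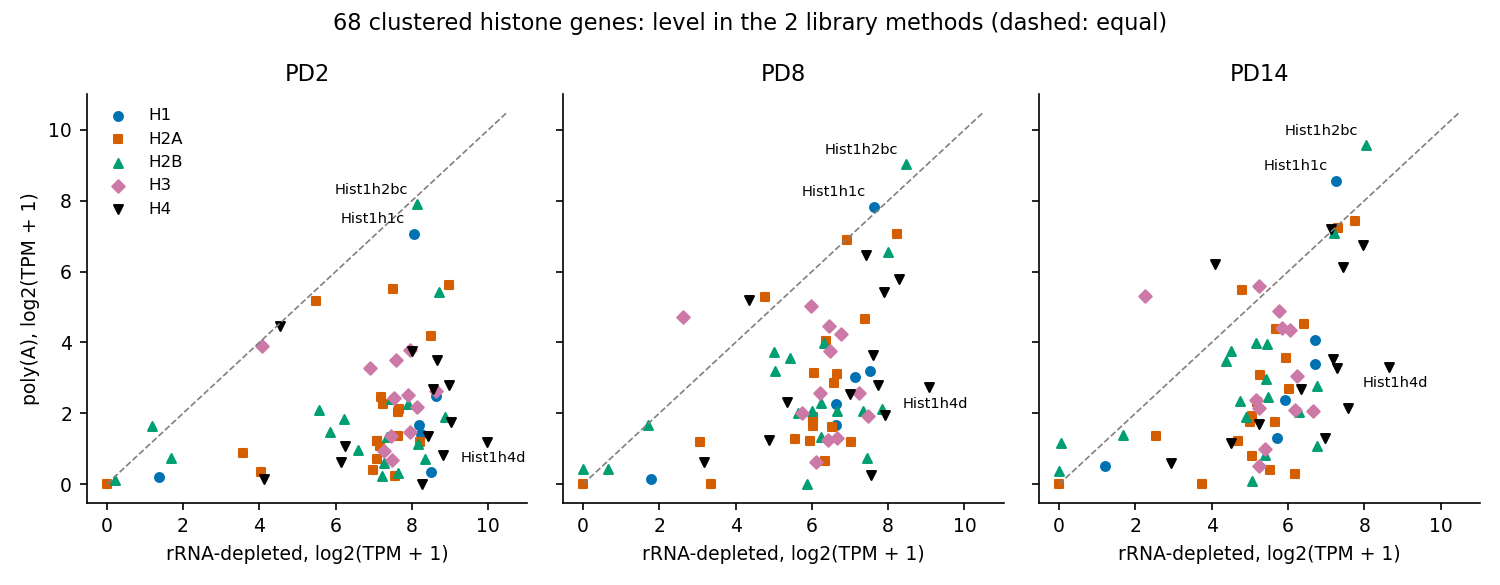
Level of each of the 68 histone genes in the rRNA-depleted (x axis) and poly(A) library (y axis) of each passage, both as log2(TPM + 1), with 1 point per gene and the line of equal level dashed. Most points lie to the right of the line at PD2 and nearer to it at PD14, while Hist1h2bc and Hist1h1c lie above it at PD8 and PD14.

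The histone RNA was spread over many genes in the rRNA-depleted libraries and concentrated in few in the poly(A) libraries. The 8 highest genes held 29.1%, 33.1% and 36.8% of the histone sum in the rRNA-depleted libraries from PD2 to PD14, and 77.3%, 75.8% and 78.4% in the poly(A) libraries. In the rRNA-depleted libraries 51, 26 and 18 genes reached 100 TPM at PD2, PD8 and PD14, and in the poly(A) libraries 2, 4 and 7 genes did. Below 1 TPM were 2, 3 and 3 genes in the rRNA-depleted libraries and 21, 11 and 12 genes in the poly(A) libraries. The genes resemble each other closely, and 53 of the 67 with an annotated coding sequence shared over 50% of their coding 50-base stretches with another gene, with class medians from 10.95% for H1 to 87.9% for H2A. How the authors' quantification divided reads between such copies is not known, so the value of a single core histone gene is less certain than its class sum.

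Passage was then examined within each method, by fitting a straight line over population doublings for each method in 1 limma model, with effects given over the 12 doublings from PD2 to PD14. The error behind the p-values of this model is the departure from a line within a method, and not the spread of repeat libraries. In the rRNA-depleted libraries 28 of the 65 histone genes fell and 0 rose, where 1.32% of all tested genes were called as falling. The fitted change was negative in 64 of 65 histone genes, with a median of -1.82 on the log2 scale against 0.06 for all tested genes. The genes that fell were 2 of 6 H1, 11 of 18 H2A, 8 of 16 H2B, 7 of 12 H3 and 0 of 13 H4. The class medians were -1.72 for H1, -1.90 for H2A, -1.85 for H2B, -1.90 for H3 and -1.26 for H4. Their adjusted p-values lay between 0.0354 and 0.0487, close to the threshold of 0.05. With 1 library left out the median change was -2.09 to -1.35, and most of these fits lost the calls. The count was 0 with no filter on low values or no mean-variance trend, where 0% and 0.0075% of all tested genes fell. It was 4 with a pseudocount of 0.1, where 0.173% of all fell. In each of these fits at most 3 histone genes had a positive change.

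Among the linker histones, Hist1h1d fell from 394.8 TPM at PD2 to 182.1 at PD8 and 103.4 at PD14 (log2 change -1.92 ± 0.18, limma adjusted p = 0.0354). Hist1h1b fell from 290.0 to 97.76 and 59.45 TPM (-2.27 ± 0.31, limma adjusted p = 0.0431). Hist1h1a had the lowest fitted change of all histone genes, with 360.5, 99.08 and 51.76 TPM, but did not pass the test (-2.78 ± 0.52, limma adjusted p = 0.0562). Hist1h1e had 299.5, 139.0 and 103.6 TPM (-1.52 ± 0.39, limma adjusted p = 0.0879). Hist1h1c, the H1 gene with the highest poly(A) level, had a smaller change (-0.79 ± 0.14, limma adjusted p = 0.0525), and the testis gene Hist1h1t stayed at or below 2.438 TPM. In the 5 somatic H1 genes the level was thus lower at each later passage, and 2 of them passed the test.

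Of the H2A genes, Hist1h2ab fell from 362.6 to 167.2 and 84.82 TPM (-2.08 ± 0.22, limma adjusted p = 0.0354). The other H2A genes that fell were Hist1h2an, Hist1h2ah, Hist1h2ao, Hist1h2ag, Hist1h2ak, Hist2h2ac, Hist1h2ap, Hist1h2ae, Hist1h2ai and Hist1h2ac, with changes from -2.30 (Hist1h2an) to -1.71 (Hist1h2ac). The H2A gene with the highest rRNA-depleted level, Hist2h2aa2, had 497.8, 299.4 and 213.5 TPM and did not pass (-1.22 ± 0.31, limma adjusted p = 0.0863). Its near copy Hist2h2aa1 had 180.0, 119.5 and 157.6 TPM, and so was not lower at PD14 than at PD8. Of the H2B genes, Hist1h2bn fell from 466.0 to 228.6 and 108.0 TPM (-2.10 ± 0.20, limma adjusted p = 0.0354) and Hist1h2bg from 418.7 to 255.5 and 147.8 TPM (-1.50 ± 0.20, limma adjusted p = 0.0431). Hist1h2bh, Hist1h2bm, Hist1h2bk, Hist1h2bb, Hist1h2bp and Hist2h2bb fell as well, from -2.45 (Hist1h2bh) to -1.56 (Hist2h2bb). Hist1h2bc stood apart from them with a fitted change of -0.07 ± 0.28 (limma adjusted p = 0.897). Hist2h2be was the 1 gene with a positive value, at 1.281, 2.269 and 2.189 TPM (0.48 ± 0.33, limma adjusted p = 0.387).

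All 12 H3 genes had changes between -2.29 and -1.65, the narrowest range of any class. Hist1h3c, the highest of them, fell from 396.5 to 175.8 and 100.3 TPM (-1.97 ± 0.29, limma adjusted p = 0.0450), Hist1h3i from 278.9 to 149.1 and 74.85 TPM (-1.88 ± 0.18, limma adjusted p = 0.0354). Hist1h3a, Hist2h3b, Hist1h3b, Hist1h3e and Hist1h3d also fell, from -2.22 (Hist1h3a) to -1.82 (Hist1h3d). Hist1h3h, another of the more abundant ones, had 247.5, 100.9 and 71.44 TPM (-1.78 ± 0.36, limma adjusted p = 0.0619). The H4 genes had smaller changes, and none of the 13 passed this test. An unadjusted p under 0.05 was found in 8 of the 13 and in 3655 of all 13332 tested genes. The nearest was Hist1h4b, with 515.3, 213.8 and 154.5 TPM (-1.73 ± 0.29, limma adjusted p = 0.0504), and Hist1h4k had 498.7, 194.1 and 142.9 TPM (-1.80 ± 0.36, limma adjusted p = 0.0611). Hist1h4d had a change of -1.32 ± 0.31 (limma adjusted p = 0.0779). Whether the classes differ in their change was not tested.

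Counted without a model, 59 of the 65 genes had rRNA-depleted levels in the order PD2 above PD8 above PD14, an order that 24.3% of all tested genes showed. The exceptions were Hist1h1t, Hist1h2bc, Hist2h2aa1, Hist2h2ab, Hist2h2be and Hist3h2a. The step from PD2 to PD8 had a median of -1.05 (log2) and that from PD8 to PD14 a median of -0.67, with 62 of 65 genes lower in each step.

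In the poly(A) libraries 21 of the 65 histone genes rose and 0 fell, where 4.22% of all tested genes were called as rising. The fitted change was positive in 58 of 65, with a median of 0.92 against 0.06 for all tested genes. The genes that rose were 3 of 6 H1, 4 of 18 H2A, 4 of 16 H2B, 4 of 12 H3 and 6 of 13 H4, and the class medians were 1.22, 0.64, 1.22, 0.75 and 1.34. The pseudocount of 1 holds back the change of genes at a few TPM or below. The count was 0 with no filter on low values and 10 with no mean-variance trend, where 0% and 2.73% of all tested genes rose. The calls were lost when either the PD2 or the PD14 poly(A) library was left out, with medians of 0.40 and 1.64. Without the poly(A) PD2 library 43 of the 65 changes were positive.

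The largest poly(A) rises were in H4 genes. Hist1h4m had 12.59, 87.88 and 146.9 TPM at PD2, PD8 and PD14 (log2 change 3.45 ± 0.52, limma adjusted p = 0.0269), Hist1h4n 5.475, 41.68 and 68.68 TPM (3.43 ± 0.52, limma adjusted p = 0.0281) and Hist1h4h 10.34, 54.24 and 105.8 TPM (3.23 ± 0.36, limma adjusted p = 0.0169). In the rRNA-depleted libraries the same 3 genes had a lower level at each later passage: 256.5, 169.6 and 138.5 TPM for Hist1h4m, 371.3, 237.9 and 173.0 TPM for Hist1h4n, and 406.0, 310.0 and 248.9 TPM for Hist1h4h. Hist1h4i rose from 20.92 to 35.38 and 72.83 poly(A) TPM (1.75 ± 0.19, limma adjusted p = 0.0169), and Hist1h4d and Hist1h4b also rose. Hist1h4m, Hist1h4n and Hist1h4h carried most of the H4 poly(A) sum at PD14. Hist1h4m and Hist1h4n each share 100% of their coding 50-base stretches with other genes, so their rises may not be separate ones.

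Of the linker histones Hist1h1c (1.49 ± 0.14, limma adjusted p = 0.0135), Hist1h1d and Hist1h1e rose in the poly(A) libraries. Hist1h1d had 4.608, 8.097 and 15.67 TPM and Hist1h1e 1.684, 7.106 and 9.563 TPM, far below Hist1h1c. Hist1h1a and Hist1h1b, at or below 4.182 TPM, did not pass. Of the H2B genes Hist1h2bc (1.67 ± 0.28, limma adjusted p = 0.0339), Hist1h2bg with 41.92, 92.67 and 135.9 TPM (1.67 ± 0.20, limma adjusted p = 0.0188), Hist1h2br and Hist1h2bp rose. Hist1h2be, with 3.284, 12.23 and 12.61 TPM, did not pass.

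Of the H2A genes Hist2h2aa2 rose from 47.87 to 131.4 and 170.4 poly(A) TPM (1.81 ± 0.31, limma adjusted p = 0.0346), with Hist1h2ad, Hist1h2ac and Hist1h2ai. Its near copy Hist2h2aa1 had 44.26, 118.8 and 148.7 TPM (1.73 ± 0.39, limma adjusted p = 0.0602). Hist3h2a had 34.93, 38.06 and 44.06 TPM, a fitted change of 0.33 ± 0.25. Of the H3 genes Hist2h3c2 rose from 8.718 to 31.53 and 47.17 TPM (2.31 ± 0.34, limma adjusted p = 0.0260), and Hist2h3b, Hist1h3d and Hist1h3i rose too. The 7 genes with a negative poly(A) change were all at or below 5.17 TPM there, and the lowest value was that of the H2A gene Hist1h2ak, with 1.273, 1.302 and 0.2278 TPM (-0.89 ± 0.32, limma adjusted p = 0.139).

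The poly(A) levels of 37 of the 65 genes were in the order PD2 below PD8 below PD14, where 30.4% of all tested genes showed that order. The step from PD2 to PD8 had a median of 0.82 (57 of 65 genes higher) and that from PD8 to PD14 a median of 0.20 (43 of 65 higher), so most of the difference lay between PD2 and PD8. In 8 genes both tests were passed, with a fall in the rRNA-depleted and a rise in the poly(A) libraries. They were Hist1h1d, Hist1h2ac, Hist1h2ai, Hist1h2bg, Hist1h2bp, Hist1h3d, Hist1h3i and Hist2h3b. The share of all tested genes that passed both tests in these directions was not computed. Whether 8 is more than unrelated falls and rises would share was not tested.

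**Figure D3:**
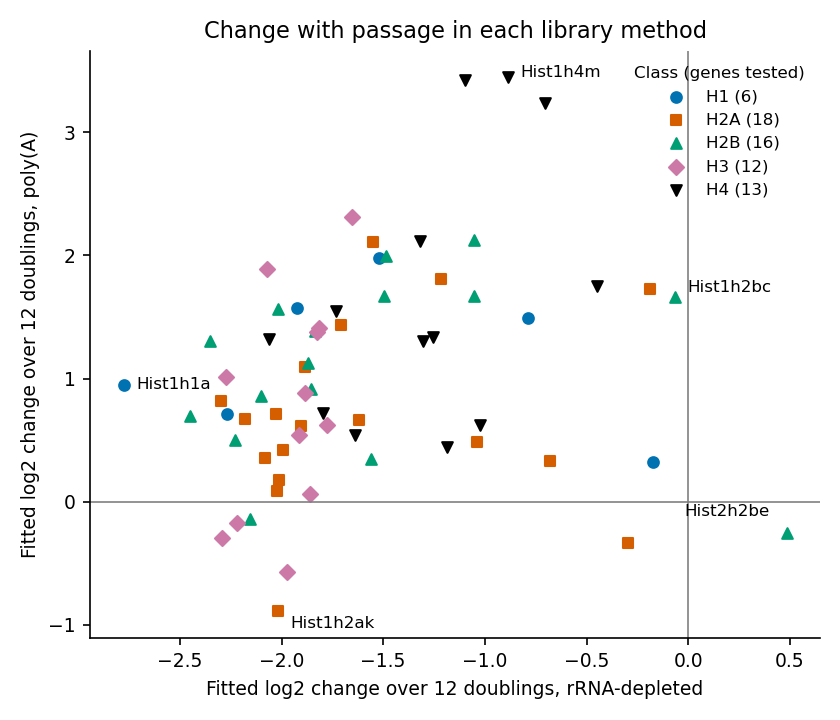
Fitted log2 change over 12 doublings of each of the 65 tested histone genes in the rRNA-depleted (x axis) and poly(A) libraries (y axis), 1 point per gene with the shape and colour giving its class. Most points lie left of 0 and above 0; Hist1h4m reaches 3.45 on the y axis, Hist1h1a -2.78 on the x axis, and Hist1h2bc sits near 0 on the x axis.

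The difference between the 2 lines was tested in the same model. It passed in 0 of the 65 histone genes and in 0% of the 13332 tested genes, with the smallest adjusted p among the histone genes at 0.0991 (limma). An unadjusted p under 0.05 was found in 60 of the 65 histone genes and in 1695 of all 13332. The difference was negative, that is lower in the rRNA-depleted libraries, in 63 of 65, with a median of -2.74. Hist1h1d had a difference of -3.49 ± 0.26 and Hist1h1c one of -2.28 ± 0.20, each at that smallest adjusted p. The lines thus had opposite signs in most genes, and no single gene passed the test of the difference.

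The model that treats the method as an additive block tests the change averaged over the 2 methods. In PD14 against PD2, 0 of the 65 histone genes were called, where 11.2% of all tested genes were, and the median was -0.37. An unadjusted p under 0.05 was reached by 3 of the 65 histone genes, against 4266 of all 13332 tested genes. The lowest adjusted p was that of Hist1h2ak (-1.45 ± 0.34, limma adjusted p = 0.0545), a gene negative in both methods. The direction turned on which PD2 library was used: the median was 0.75 without the rRNA-depleted one and -1.53 without the poly(A) one. In PD8 against PD2, 0 of 65 were called against 0.0225% of all genes. An unadjusted p under 0.05 was found in 1 of the 65 and in 2713 of all 13332. Without the rRNA-depleted library of PD2 the median of this comparison was 1.06, and without the poly(A) library of PD2 it was -1.28. In PD14 against PD8, 0 of 65 were called against 0% of all genes, with an unadjusted p under 0.05 in 1 of the 65 and in 746 of all 13332.

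By position the genes fell into 2 large groups on chromosome 13, a smaller one on chromosome 3 and a few single sites (GRCm38). The 23 genes at chr13:21715763-22043676 had a ratio of PD14 to PD2 of 0.289 in summed rRNA-depleted TPM and of 5.12 in poly(A) TPM. The 31 genes at chr13:23531050-23934851 had 0.343 and 3.09, and the 10 genes at chr3:96219865-96270132 had 0.408 and 3.48. The Hist3 pair on chromosome 11 had 0.586 and 1.25, and Hist4h4 on chromosome 6 had 0.405 and 4.67. Hist1h2al, which the annotation lists as a processed pseudogene, lies apart on chromosome 13 and had 10.94, 7.33 and 4.804 rRNA-depleted TPM. Every group thus had a lower rRNA-depleted and a higher poly(A) sum at PD14 than at PD2.

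The length of annotated transcript beyond the stem-loop was set against the levels. In the 21 tested genes whose annotated transcript runs at least 100 bases past the loop, the median poly(A) level was 3.37, 7.64 and 9.56 TPM from PD2 to PD14, and in the 22 with less it was 1.95, 3.53 and 4.3 TPM. The rRNA-depleted medians were 152, 73.4 and 37.6 TPM in the first set and 192, 99.6 and 57.7 TPM in the second. The 2 sets overlapped widely, and Hist1h4d with 770 annotated bases past the loop had low poly(A) levels while Hist1h4m with 3 had some of the highest. The signal AATAAA lay in the last 40 bases of an annotated transcript of 15 histone genes. Among them were Hist1h1c, with 840 annotated bases past its loop, and Hist2h3c1, with 1167. Hist4h4 and Hist1h1t also had it and were under 1 TPM in every poly(A) library. Their rRNA-depleted levels were low too, at 16.28, 8.07 and 6.591 TPM and at 1.6, 2.438 and 1.305 TPM. Hist1h2bc, the highest poly(A) gene, had no exact AATAAA in that window, and variants of the signal were not searched. Whether the signal bears on the poly(A) level was not tested. The share of other genes with this signal was not computed. Across the 65 genes, which share the same libraries, the log2 ratio of poly(A) to rRNA-depleted level at PD8 and the rRNA-depleted change from PD2 to PD14 had a Spearman correlation of 0.563 (Pearson 0.597), given as a description: genes relatively higher in poly(A) RNA had the smaller decline.

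Many H2A and H2B genes lie head to head and share the stretch between their starts. There were 12 such pairs, all of 1 H2A and 1 H2B gene, with 175 to 305 bases between the annotated starts (median 258.5). In most pairs both partners were lower at PD14, such as Hist1h2ak and Hist1h2bn with rRNA-depleted ratios of PD14 to PD2 of 0.244 and 0.232. In 2 pairs the rRNA-depleted ratios lay further apart. Hist1h2ac had a ratio of 0.303 and its partner Hist1h2bc, 250 bases away, one of 0.954. Hist2h2ac had 0.244 and the lowly expressed Hist2h2be 1.71. The poly(A) ratios of the first pair were close, at 3.2 and 3.18, and those of the second were 1.86 and 0.764.

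Promoter sequence from RefSeq (GRCm38.p6) could be matched to 61 of the 68 genes, and the 250 bases before the start were searched on both strands. The octamer ATTTGCAT, the site known for OCT1, occurred in 7 of 17 H2A and 7 of 16 H2B promoters, in none of the H1, H3 and H4 promoters, and in 1.6% of all promoters. CCAAT occurred in 6 of 6 H1, 17 of 17 H2A, 16 of 16 H2B, 8 of 10 H3 and 3 of 12 H4 promoters (33.8% of all). The H1 box AAACACA occurred in 5 of 6 H1 promoters and in 2 H2A and 2 H2B promoters (6.25% of all). GGTCC, the core of an H4 promoter element, occurred in 11 of 12 H4 promoters (39.8% of all). It also occurred in 1 of 6 H1, 3 of 17 H2A, 6 of 16 H2B and 4 of 10 H3 promoters. TATAAA occurred in 4 of 6 H1, 7 of 17 H2A, 8 of 16 H2B, 4 of 10 H3 and 6 of 12 H4 promoters (12.4% of all). A match is a description of these letters and not a measured site. Part of the promoter is shown for 4 genes that the results turn on, with motif matches in capitals, 5′ to 3′ on the gene's strand: the Hist1h2ac side of the stretch it shares with Hist1h2bc, the H4 gene with the highest level, and the H1 genes with the lowest fitted change and with the highest poly(A) level.
Hist1h2ac, chr13:23683960-23684189, minus strand: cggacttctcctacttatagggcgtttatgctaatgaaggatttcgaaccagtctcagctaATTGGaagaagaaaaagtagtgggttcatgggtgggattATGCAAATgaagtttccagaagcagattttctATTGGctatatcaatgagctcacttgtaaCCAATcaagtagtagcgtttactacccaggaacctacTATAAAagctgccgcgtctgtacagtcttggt
Hist1h4d, chr13:23581448-23581567, plus strand: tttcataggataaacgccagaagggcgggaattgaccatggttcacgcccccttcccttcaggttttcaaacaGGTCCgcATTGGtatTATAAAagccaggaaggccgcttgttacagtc
Hist1h1a, chr13:23763548-23763667, plus strand: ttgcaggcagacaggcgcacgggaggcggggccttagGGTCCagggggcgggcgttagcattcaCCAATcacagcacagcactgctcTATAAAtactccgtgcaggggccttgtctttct
Hist1h1c, chr13:23738687-23738806, plus strand: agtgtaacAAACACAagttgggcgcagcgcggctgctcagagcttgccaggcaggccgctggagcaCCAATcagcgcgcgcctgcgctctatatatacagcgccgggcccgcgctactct
The Hist1h2ac stretch holds 1 octamer, 3 CCAAT boxes and 1 TATAAA.

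Genes that act with the histone genes were examined as 5 lists, each of which had a negative median change with passage in both methods. Of 22 S phase genes, which copy DNA and make its building blocks, 17 fell and 0 rose in PD14 against PD2, where 4.77% of all tested genes fell. The fitted change over doublings was negative in all 22 with either method, with a median of -1.04 from rRNA-depleted and of -1.45 from poly(A) RNA. The largest changes in PD14 against PD2 were those of Cdc6 (-1.91 ± 0.22), which loads the replicative helicase, of the helicase subunit Mcm5 (-1.76 ± 0.17), of the GINS subunit Gins1 (-1.61 ± 0.23) and of thymidine kinase Tk1 (-1.46 ± 0.17), with limma adjusted p-values from 0.0166 to 0.0244. Of 15 histone chaperone genes, whose products carry and deposit histones, 8 fell and 0 rose, led by Asf1b (-1.62 ± 0.20), the CAF-1 subunit Chaf1b (-1.58 ± 0.18), Nasp (-1.37 ± 0.26) and the CAF-1 subunit Chaf1a (-0.98 ± 0.16). These calls were lost in fits without any one of the PD8 or PD14 libraries, where few of all tested genes were called. Some of them were kept without either PD2 library.

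Of 12 genes of histone transcription 3 fell and 0 rose in PD14 against PD2, against the same 4.77% of all tested genes, which is also the share to set beside the 2 lists that follow. They were cyclin E2 (Ccne2, -1.47 ± 0.25), its kinase Cdk2 (-0.76 ± 0.15) and Casp8ap2 (-0.79 ± 0.17), a component of histone locus bodies. Of 22 genes of histone mRNA 3′ end formation and turnover 2 fell and 0 rose, Cstf2 (-0.95 ± 0.18) and the Sm protein gene Snrpf (-0.80 ± 0.11). Slbp, which binds the stem-loops shown above and was chosen after its values were seen, did not pass (-0.39 ± 0.21, limma adjusted p = 0.266), with a fitted change of -0.01 from rRNA-depleted and of -0.77 from poly(A) RNA. Of 11 replication-independent histone variants, which are made outside S phase as well and from polyadenylated mRNA, 3 fell and 0 rose: H2afz (-1.56 ± 0.19), H2afx (-1.25 ± 0.17), whose mRNA is known in both a stem-loop and a polyadenylated form, and H2afy2 (-0.75 ± 0.16). The calls of these 3 lists too were lost without any one of the PD8 or PD14 libraries, where few of all tested genes were called.

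**Figure D4:**
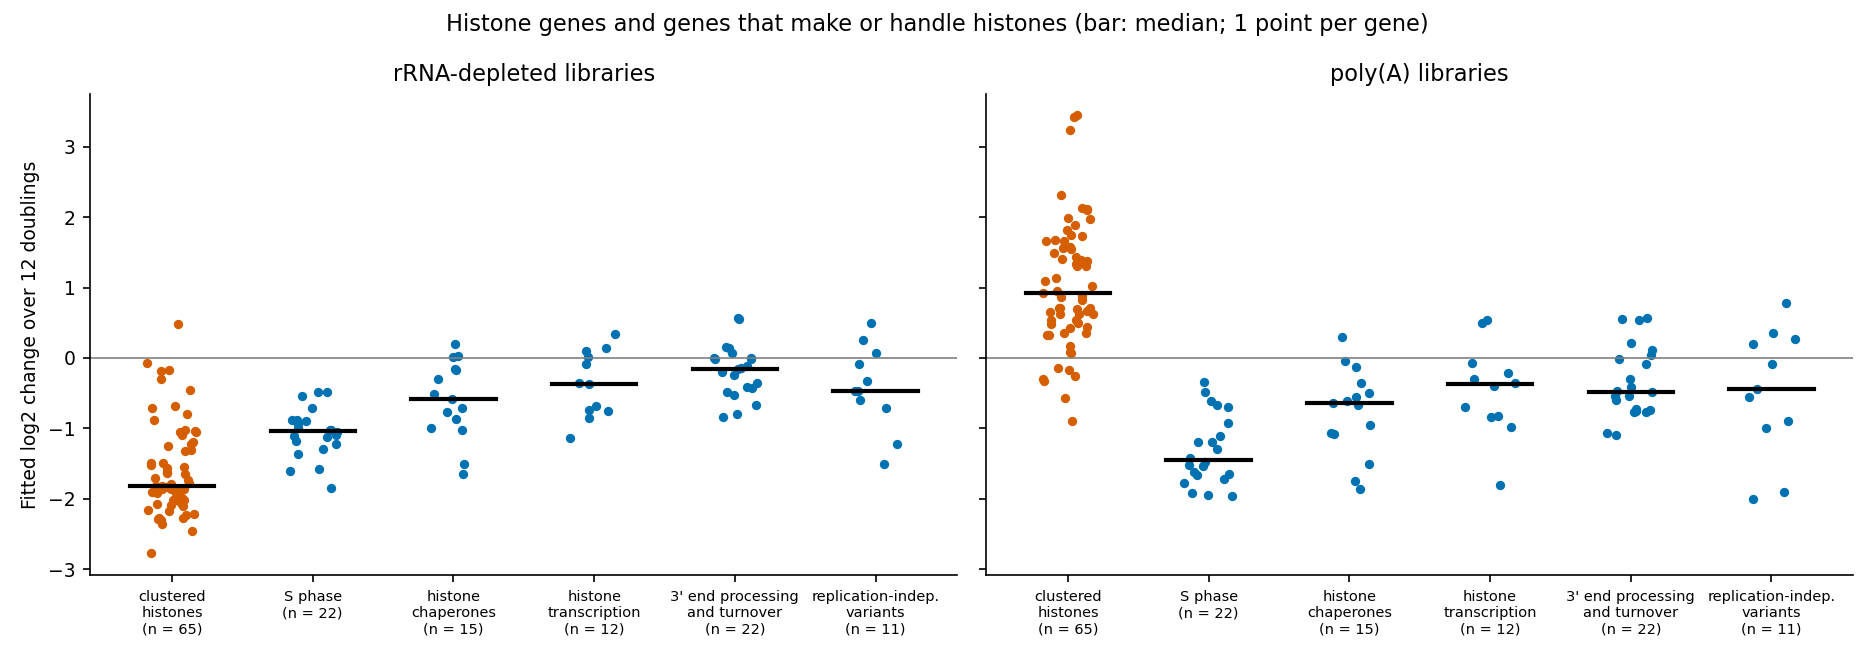
Fitted log2 change over 12 doublings of the 65 tested histone genes (orange) and of 5 lists of related genes (blue) in the rRNA-depleted (left) and poly(A) libraries (right), 1 point per gene with the median as a black bar. The S phase medians are -1.04 and -1.45, negative on both sides, while the histone medians are -1.82 on the left and 0.92 on the right.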

How the data were processed

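RNA from 6 mouse embryonic fibroblast libraries was analysed, 2 in each of 3 passage groups, from the authors' deposited table of TPM values for 21988 genes. Per the submitters' processing notes the build was mm10 and the tools were StringTie 1.3.1c, HISAT2 2.0.5, cutadapt 1.14 and bcl2fastq; their roles and the gene annotation are not given in the sources used here. Per the labels' protocols replicate 1 is a strand-specific rRNA-depleted and replicate 2 a poly(A)-enriched library, so the replicate number marks a shared method. Deviations from the group means correlated between libraries of the same method (r = 0.752, 0.664 and 0.854), and the method was kept as a block in the pairwise comparisons.

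Genes at 1 TPM or more in at least 2 libraries (13332) were tested on log2(TPM + 1) with limma 3.58.1 in R 4.3.3, with a mean-variance trend, two-sided, and Benjamini-Hochberg adjustment over all tested genes; the threshold was 0.05. A fold change on this scale understates that of low genes. One fit had passage group and method, the other a line over population doublings for each method, each with 2 residual degrees of freedom. The error of the first is the disagreement of the methods over passage. That of the line fit is the departure from a line within a method. The scripts were tested on simulated data. Fits with another pseudocount, no filter, other scalings, no trend, no block or 1 library left out were run as alternatives. The TPM of the rRNA-depleted libraries sum to under 1000000, and a TPM is a share, so it moves with all other RNA of the library.

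The histone genes and the other lists were chosen with earlier results of these data known. Genes were named by a rule: the 3 highest members of each class by mean level in each method, all H1 genes, all members past the threshold in a passage test, and up to 4 genes of each other list past the threshold in PD14 against PD2, with further members named as examples after their values were seen. Gene positions and transcripts are from GENCODE M21, promoters from RefSeq.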

Additional observations from a re-analysis of the deposited data

Results flagged for a closer look

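The summed level of the histone genes went in opposite directions in the 2 library methods. The ratio of PD14 to PD2 was 0.3345 with rRNA depletion and 3.265 with poly(A) selection, and the PD8 value lay between the others in both. The difference between the 2 sums was not tested. For single genes the test of the difference between the lines (limma) called 0 of 65 at an adjusted p under 0.05. At an unadjusted p under 0.05 it called 60 of 65, against 1695 of all 13332 tested genes. No group was large enough to test for a sample apart from the others.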

How the results depend on the processing

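With the method block left out, the 3 pairwise comparisons called 0 of 65 histone genes each. They also called 0 of all 13332 tested genes, so these counts say nothing particular to the histone genes. The slope fits have no version without the method. For PD14 against PD2 the count of 0 became 1 with a pseudocount of 0.1, of 0.5 or with quantile normalization, and 0 to 32 with 1 library left out; there 16 rose without the rRNA-depleted and 32 fell without the poly(A) library of PD2. For PD8 against PD2 it was 0 to 13, where 13 rose and 5 fell without those libraries, and for PD14 against PD8 it was 0 in every fit. The method comparison called 34 to 55 higher with 1 library left out, and 5 lower without either PD2 library. The falls in the rRNA-depleted libraries numbered 0 with no filter or no trend, 4 with a pseudocount of 0.1, 18 with one of 0.5, 33 when rescaled without histone and mitochondrial genes, 42 with quantile normalization, and 0 to 25 with 1 library left out. The rises in the poly(A) libraries numbered 0 with no filter and 10 with no trend, where 0% and 2.73% of all tested genes rose. With 1 library left out their median change was 0.40 to 1.64 over the 65 histone genes, and calls were lost. The slope difference called 0 in every fit. For the 17 S phase genes that fell in PD14 against PD2, the count was 6 with no filter, where 2.25% of all tested genes were called. With no method block 0 of the 33 genes that fell in the 5 other lists passed, and 0 of all 13332 tested genes did. None of the 28 falls, 21 rises and 33 falls of listed genes changed sign in any of these fits, and the cause of the lost calls was not tested. A fit that leaves out a library has fewer residual degrees of freedom, and the lone library left in a group is assumed to vary like the others. Rescaling without histone and mitochondrial genes moved the median method difference of all tested genes by 0.109, quantile normalization by -0.104, and leaving out the poly(A) PD2 library moved the poly(A) median by -0.118. Depth cannot be judged from TPM.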
